A study of Homo sapiens with 6 samples.

Results

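The 59 genes described here lie along both arms of human chromosome 18, 15 on the short arm and 44 on the long arm, out of 58884 rows in the deposited expression table. They were listed by symbol with the values of the 8505C cell line already known, so their differences in that line are a description and carry no test. The list has no expression threshold. Its only boundary divides the arms on GRCh38, with RNMT (chr18:13726660-13764558) as the last short arm member and ESCO1 (chr18:21529281-21600884) as the first long arm member. A further 1123 rows of the table map to chromosome 18 and are not in the list.

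Total RNA was sequenced from 3 established human thyroid carcinoma lines, with 1 library in each of 6 groups. BHT-101 and 8505C come from anaplastic carcinoma and FTC-133 from follicular carcinoma. An siRNA against CRABP2 (siCRABP2) was set against a control siRNA (siControl) in BHT-101 and FTC-133, while in 8505C a vector that overexpresses CRABP2 was set against the empty vector. The series title names the effect of depleting or overexpressing CRABP2 in these lines as the question. Nothing in the sources used here says whether the 8505C vector cultures were clones or pools, or whether cultures of a line were grown separately. As each group holds 1 library, differences inside a line have no replicate check, and the comparisons below are between libraries.

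CRABP2 encodes a protein that carries retinoic acid into the nucleus, where retinoic acid receptors bind DNA and regulate target genes. The chromosome 18 genes are not a pathway. They share a chromosome and otherwise work in separate processes, among them SMAD4 and SMAD2, which carry TGF-beta signals to the nucleus, NPC1, which exports cholesterol from lysosomes, and LMAN1, which carries glycoproteins out of the endoplasmic reticulum. The long arm of chromosome 18 is known in cancer research for SMAD4, a tumour suppressor gene.

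Because the members are grouped by position, the sequence just upstream of the start site was examined for 4 of them. TXNL4A and RNF138 were among the members that were higher with the CRABP2 vector, whereas TWSG1 and MIB1 lay near 0. The choice of these 4 was made after their values were seen. Each line gives 220 bases, from 250 to 31 bases before a RefSeq start, 5′ to 3′ on the strand of the gene, with GC boxes (GGGCGG) and CCAAT boxes (CCAAT) in capitals on either strand. The sequences are from RefSeq on GRCh38.p14, at chr18:80033967-80034186 (minus strand), chr18:32091624-32091843 (plus strand), chr18:9334523-9334742 (plus strand) and chr18:21740542-21740761 (plus strand). The MIB1 window lies before a start inside the gene's span as given below.
TXNL4A: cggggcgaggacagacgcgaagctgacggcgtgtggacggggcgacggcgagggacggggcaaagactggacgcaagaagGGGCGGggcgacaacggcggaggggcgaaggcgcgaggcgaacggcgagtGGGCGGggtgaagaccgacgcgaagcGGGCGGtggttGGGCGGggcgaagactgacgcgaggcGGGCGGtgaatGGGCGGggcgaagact
RNF138: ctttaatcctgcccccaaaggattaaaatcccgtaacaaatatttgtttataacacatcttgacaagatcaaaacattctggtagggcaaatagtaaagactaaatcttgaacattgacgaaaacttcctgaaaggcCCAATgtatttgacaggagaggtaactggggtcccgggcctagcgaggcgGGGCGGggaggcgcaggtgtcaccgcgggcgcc
TWSG1: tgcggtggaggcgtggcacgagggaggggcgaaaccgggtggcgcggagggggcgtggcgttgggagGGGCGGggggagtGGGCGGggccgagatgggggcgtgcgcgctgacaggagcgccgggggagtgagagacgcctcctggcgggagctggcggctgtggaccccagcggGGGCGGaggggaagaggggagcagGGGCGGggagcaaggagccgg
MIB1: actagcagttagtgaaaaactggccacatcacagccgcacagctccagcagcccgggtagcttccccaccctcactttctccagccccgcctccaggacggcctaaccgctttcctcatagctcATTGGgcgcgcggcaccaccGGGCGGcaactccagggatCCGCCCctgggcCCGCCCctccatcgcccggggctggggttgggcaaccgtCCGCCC

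These windows hold 6, 1, 4 and 4 GC boxes for TXNL4A, RNF138, TWSG1 and MIB1, and RNF138 and MIB1 hold 1 CCAAT box each. GC boxes therefore occur both in windows of members that were higher and in windows of members that were not. RefSeq start windows were found for 52 of the 59 members, 86 windows in all, counting alternative starts. The 250 bases before each start were searched on both strands. A GC box occurred in 59.3% of the member windows, in 35.1% of the 721 chromosome 18 windows and in 42.6% of all 35116 windows. In the same order a CCAAT box occurred in 31.4%, 25.5% and 32.0%, and TATAAA in 6.98%, 13.9% and 10.7%. The half-site AGGTCA, which nuclear receptors such as the retinoic acid receptors bind in pairs, occurred in 5.81%, 11.9% and 12.1%. Direct repeats of the half-site with spacers of 1, 2 or 5 bases were found in 0 member windows. They also occurred in 0 of the 721 chromosome 18 windows and, in that order, in 6, 1 and 1 of all 35116. Repeats this rare leave a count of 0 in 86 windows uninformative about the members. The windows of the chromosome and of the whole set were not restricted to expressed genes, whereas 57 of the 59 members were measured in 8505C. The shares therefore do not compare like sets of genes. A match describes letters in the window and is not evidence of binding.

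CRABP2 followed the labels in each line. In 8505C its level was 0.607 FPKM (fragments scaled for exon length and library depth) with the empty and 38.0 FPKM with the CRABP2 vector. With siControl and siCRABP2 it was 27.3 and 11.4 FPKM in BHT-101 and 8.94 and 0.170 FPKM in FTC-133. Read totals recovered from the FPKM values were 22084110 to 27958622 per library, and mitochondrial genes took 1.61% to 5.43% of reads. Among thyroid markers, NKX2-1 was detected at over 12 FPKM in each FTC-133 and 8505C library and was listed at 0 in both BHT-101 libraries, and TG, the thyroglobulin gene of differentiated follicular cells, was at or near 0 in all 6 libraries. PAX8, a thyroid transcription factor, was 12.3 and 13.0 FPKM in FTC-133, 0.184 and 0.141 in 8505C and 0.233 and 0.273 in BHT-101. TSHR, SLC5A5 and FOXE1 were at or below 0.451 FPKM in each library. Between the 2 8505C libraries the summed FPKM of 5 epithelial markers went from 148 to 235, of 4 fibroblast markers from 1.01 to 0.348, of 4 leukocyte markers from 16.5 to 13.1 and of 3 endothelial markers from 2.89 to 3.20. CD14 made up most of the leukocyte sum, and PTPRC, which all leukocytes carry, was 0.0143 and 0.00988 FPKM. EPCAM, an epithelial marker, was 0.174 and 0.0719 FPKM, and KRT8 and KRT18 made up nearly all of the epithelial sum. The part of these shifts in the chromosome 18 values was not tested. The libraries come from carcinoma lines, so these sums describe marker genes and do not count fibroblasts, leukocytes or endothelial cells. In bulk RNA, fewer cells that express a gene and less RNA per cell cannot be told apart.

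In 8505C nearly all of the chromosome 18 members were higher in the library with the CRABP2 vector, and most by a similar, modest amount. On the log2(FPKM + 1) scale, which understates the change of low genes, the median difference over the 59 members was 0.40, from -0.52 for ABHD3 to 0.74 for RBBP8. The median ratio of FPKM was 1.47. Of the 59 members, 54 lay above 0 (52.8% of the 11719 genes measured in this line did so), 44 were at least 0.3 higher (21.2%), 1 was at least 0.3 lower (17.6%), 0 were at least 1 higher (1.83%) and 0 at least 1 lower (1.86%). The median over all measured genes was 0.02. A gene counted as measured in a line when at least 1 of the 2 libraries reached 1 FPKM. That held for 57 members in 8505C, and 3 of those (TCF4, GATA6 and RNF125) passed only through the vector library.

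The shift was present on both arms. On the short arm the median was 0.43, 14 of 15 members were above 0 and 12 of 15 were at least 0.3 higher, and on the long arm it was 0.39, with 40 of 44 above 0 and 32 of 44 at least 0.3 higher. For the measured chromosome 18 genes outside the list the medians were 0.29 on the short arm, with 15 of 33 at least 0.3 higher, and 0.42 on the long arm, with 55 of 74. For the members the order of the arms was not stable: the short arm median minus the long arm median was 0.04 and turned to -0.07 with a pseudocount of 0.1, to -0.03 without the trend on GC content and length, and to -0.09 on recovered reads. In windows of 10 Mb the member medians were 0.43 at 0 to 10 Mb, 0.47 at 10 to 20 Mb, 0.22 at 20 to 30 Mb, 0.39 at 30 to 40 Mb, 0.39 at 40 to 50 Mb and 0.50 at 50 to 60 Mb. The 2 members between 60 and 70 Mb, VPS4B and KDSR, were 0.55 and 0.43 higher, and the 4 between 70 and 80 Mb had a median of 0.39. The window from 20 to 30 Mb, just beyond the arm boundary, was the lowest of those with at least 4 members, with 4 of 11 members at least 0.3 higher. Members in it ranged from -0.52 for ABHD3 to 0.74 for RBBP8.

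**Figure D1:**
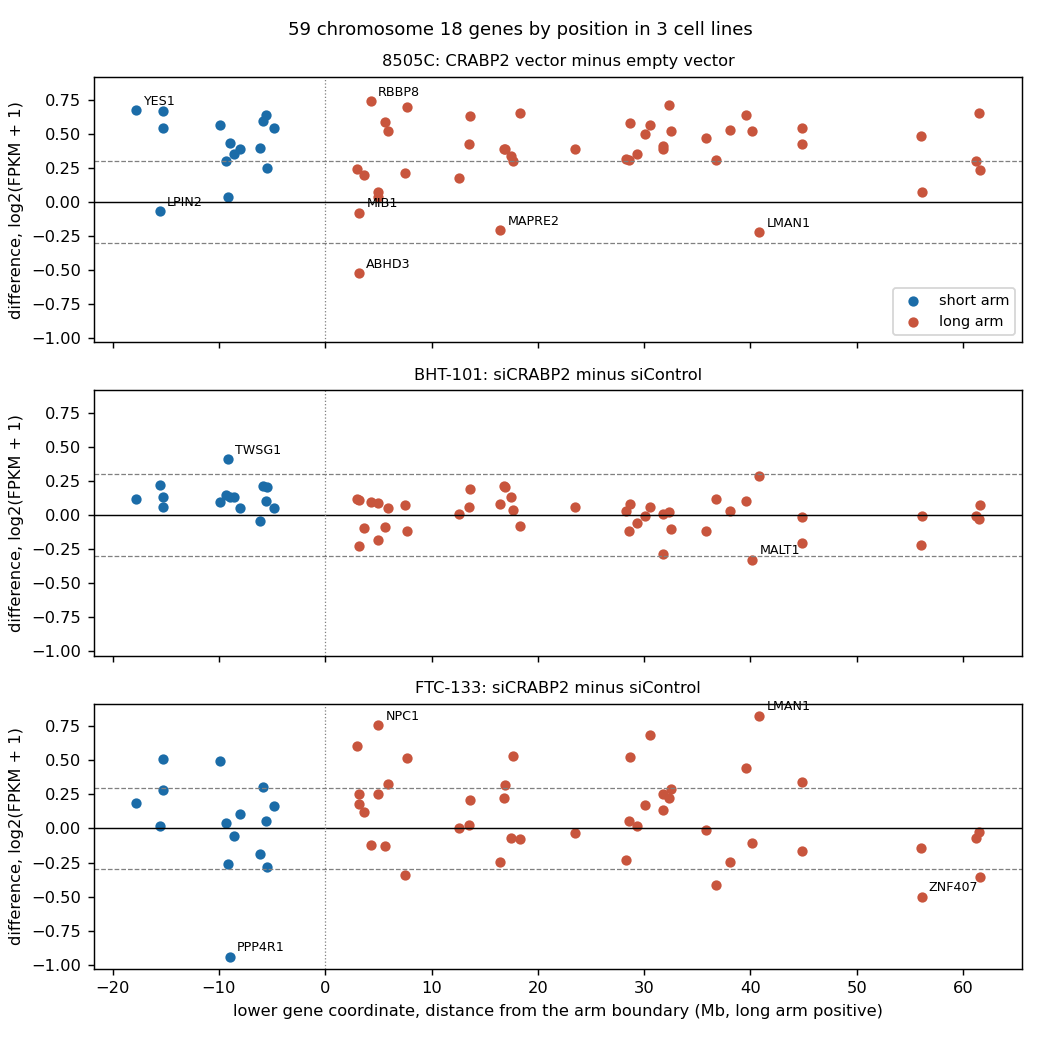
Difference in log2(FPKM + 1) of each of the 59 members (vertical axis) against the distance of its lower coordinate from the arm boundary (horizontal axis, in Mb), with 1 panel per line and 1 point per gene from 1 library against 1 library. Dashed lines mark differences of 0.3 in either direction. In the 8505C panel 54 of 59 points lie above 0 on both arms, while the BHT-101 points stay between -0.33 and 0.41 and the FTC-133 points spread from -0.94 to 0.83.

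The rest of the chromosome had a similar median. Chromosome 18 was itself taken up with the 8505C values known, so its values and its place among chromosomes in that line are also a description. The other 107 measured chromosome 18 genes had a median of 0.39 in 8505C, with 100 above 0 and 70 at least 0.3 higher, and of the 88 protein-coding genes among them 84 lay above 0. Their median was 0.51 with a pseudocount of 0.1, 0.19 with a pseudocount of 5 and 0 with no filter, where most of the 1123 rows are low or at 0. Over all measured chromosome 18 genes, members included, the median was 0.39 and 68.9% were at least 0.3 higher. The other 22 chromosomes (the autosomes and X) had medians from -0.14 on chromosome 17 to 0.22 on chromosome 21, and 8.98% to 38.1% of their genes were at least 0.3 higher. The share of all non-mitochondrial reads that fell on chromosome 18 was 0.879% (empty vector) and 1.18% (CRABP2 vector) in 8505C. In the 4 siRNA libraries that share was 0.972% to 1.05%, so the empty vector library lay below that range and the CRABP2 vector library above it. The share of the 59 members was 0.388% for the empty vector, 0.509% for the CRABP2 vector, and 0.429% to 0.496% in the siRNA libraries. DNA copy number was not analysed here.

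**Figure D2:**
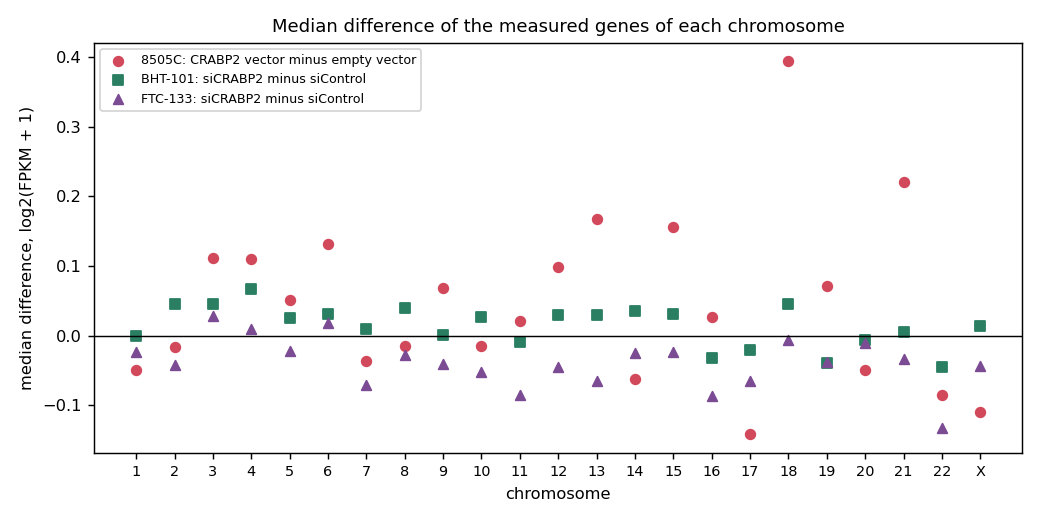
Median difference in log2(FPKM + 1) over the measured genes of each chromosome (vertical axis) by chromosome (horizontal axis), with 1 marker shape per line. Chromosome 18 has the highest median of the 23 in 8505C, at 0.39, while its BHT-101 median is 0.05 and its FTC-133 median -0.01. It was taken up with the 8505C values known, so its place in that line is a description.

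Outside the list, among chromosome 18 genes with a mean of at least 5 FPKM over the 6 libraries, the highest differences in 8505C were those of RPL17 (0.99), a ribosomal protein gene, RAB31 (0.98) and RAB27B (0.95), both small GTPases of membrane traffic, HAUS1 (0.92), a subunit of the spindle augmin complex, and NDC80 (0.88), a kinetochore component. RAB31 was 77.5 and 154 FPKM with the empty and the CRABP2 vector, whereas NDC80 was 0.357 and 1.5 and owes its mean to the other lines. The lowest were IMPA2 (-0.39), an inositol monophosphatase, the long noncoding RNA LINC01029 (-0.20), ROCK1 (-0.12), a kinase of actomyosin contraction, and RMC1 (-0.06), a subunit of an endosomal Rab activator. IMPA2 and LINC01029 were low in 8505C, at 1.82 and 1.15 and 0.146 and 0 FPKM. LINC02582 was listed at 0 in both 8505C libraries. ROCK1 and RMC1 have their lower coordinates at 20.9 and 23.5 Mb, in the same stretch as several of the members that did not share the shift. The window from 20 to 30 Mb also holds RBBP8 (0.74), the largest rise of any member, and TAF4B (0.70), OSBPL1A (0.59) and IMPACT (0.52).

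In all, 5 members lay below 0 in 8505C. ABHD3 (ENSG00000158201, chr18:21650897-21704805), a phospholipase, was 2.56 and 1.48 FPKM with the empty and the CRABP2 vector (-0.52), on 254 and 142 reads. The 95% exact interval of the log2 ratio of its reads, scaled for depth, was -1.10 to -0.49. Such intervals cover counting error only, since reads carry no molecular tags, and they use no pseudocount, so at low FPKM they can lie farther from 0 than the difference on the log2(FPKM + 1) scale. LMAN1 (chr18:59327823-59359962) was 52.9 and 45.2 FPKM (-0.22, interval -0.27 to -0.18), and MAPRE2, which binds growing microtubule ends, was 3.08 and 2.54 FPKM (-0.21, interval -0.49 to -0.07). MIB1, a ubiquitin ligase of Notch ligands, was 14.5 and 13.7 FPKM (-0.08, interval -0.15 to -0.01), and LPIN2, a phosphatidate phosphatase, was 10.9 and 10.3 FPKM (-0.07, interval -0.18 to 0.02). The interval lay below 0 for the first 4 of these and included 0 for LPIN2. Over all members it lay above 0 for 50 (35.1% of genes measured) and below 0 for 4 (30.8%).

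The measured neighbours of the 5 members below 0 were higher, apart from ABHD3 and MIB1, which adjoin each other. A measured neighbour need not be the next gene on the chromosome. The cut at 0 marks no gap, as TWSG1 and NPC1 lay at 0.04 and RIOK3 at 0.07. The neighbour of LPIN2 toward the centromere, MYL12A, was 0.67 higher, and its other measured neighbour SMCHD1 was 0.16 higher. ABHD3 (minus strand) and MIB1 (plus strand, chr18:21704957-21870957) lie head to head, with SNRPD1 (0.27) on one side and GATA6 (0.20) on the other. MAPRE2 begins at chr18:34976928 and lies between RNF138 (0.63), which ends at chr18:32131561, and ZNF397 (0.31). LMAN1 lies between SEC11C (0.39) and CCBE1 (0.29).

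At the other end, RBBP8 (ENSG00000101773, chr18:22798261-23026488), which starts the resection of broken DNA ends, was 8.87 and 15.5 FPKM in the 8505C libraries (0.74, interval 0.69 to 0.92). ME2 (chr18:50878734-50954257), the mitochondrial malic enzyme, was 2.73 and 5.10 FPKM (0.71, interval 0.79 to 1.02). TAF4B (chr18:26225936-26391685), a subunit of the general transcription factor TFIID, was 2.07 and 3.99 FPKM (0.70, interval 0.72 to 1.17). All 3 lie on the long arm. YES1 (chr18:721588-812546), a SRC-family tyrosine kinase and the member nearest the short arm telomere, was 26.4 and 42.7 FPKM (0.67, interval 0.63 to 0.76). MYL12A, a myosin regulatory light chain, was 42.5 and 68.2 FPKM (0.67, interval 0.62 to 0.75).

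With siRNA against CRABP2 the member median lay close to 0 in BHT-101, and in FTC-133 it varied with the scale. In BHT-101 the median over the 59 members was 0.06 for siCRABP2 minus siControl, with 39 above 0 (53.3% of 12048 measured genes), 1 at least 0.3 higher (6.26%) and 1 at least 0.3 lower (4.91%). In FTC-133 the median was 0.06, with 36 above 0 (46.1% of 12824), 14 at least 0.3 higher (19.4%) and 5 at least 0.3 lower (25.6%). The FTC-133 median was 0.15 with a pseudocount of 0.1, 0.17 over members with a mean of at least 5 FPKM and 0.22 on recovered reads. On recovered reads 41 members were above 0, against 52.4% of all measured genes, whose median was 0.03. There 23 members were at least 0.3 higher, and the share of all genes at that size was not computed. In BHT-101 0 members were at least 1 higher (0.589%) or lower (0.54%), and in FTC-133 0 were at least 1 higher (2.36%) or lower (2.35%). All measured genes together had medians of 0.01 (BHT-101) and -0.04 (FTC-133). In BHT-101 55 members were measured and in FTC-133 56. The whole of chromosome 18 had a median of 0.05 in BHT-101, within the range of -0.04 to 0.07 over the other chromosomes, and of -0.01 in FTC-133, within -0.13 to 0.03.

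In BHT-101 14 of 15 short arm members were above 0 with a median of 0.13, and 25 of 44 long arm members with a median of 0.03. The share over all measured genes was 53.3%. Short arm genes outside the list did not share this, with 21 of 39 above 0 and a median of 0.01. On the long arm 48 of 83 such genes were above 0, with a median of 0.05. The difference between the arms was not tested. The counting interval lay above 0 for 22 members in BHT-101 (23.7%) and below for 7 (19.2%). In FTC-133 it lay above 0 for 28 (32.1%) and below for 18 (39.5%), with short and long arm medians of 0.06 and 0.09. In both siRNA lines at once 26 members were above 0 (27.6% of 10654 genes measured in both) and 10 were below 0 (27.7%). No member was at least 0.3 higher in one siRNA line and at least 0.3 lower in the other.

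Across both siRNA lines a limma model, blocked by cell line, covered all 12953 genes at 1 FPKM or more in 2 or more of the 4 libraries. With Benjamini-Hochberg adjustment 0 genes (0%) passed 0.05, and the smallest adjusted p was 0.25. Before adjustment 314 genes were higher (2.42%) and 225 lower (1.74%) at a p under 0.05. Of the 56 members tested, 1 was among them: LMAN1, with an estimate of 0.56 (SE 0.18), an unadjusted limma p of 0.0204 and an adjusted p of 0.869, higher in 2 of 2 lines. The fit leaves 1 residual degree of freedom per gene, and its p-values set the mean difference of the 2 lines against a variance moderated across genes. No member passed the test in either direction.

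**Figure D3:**
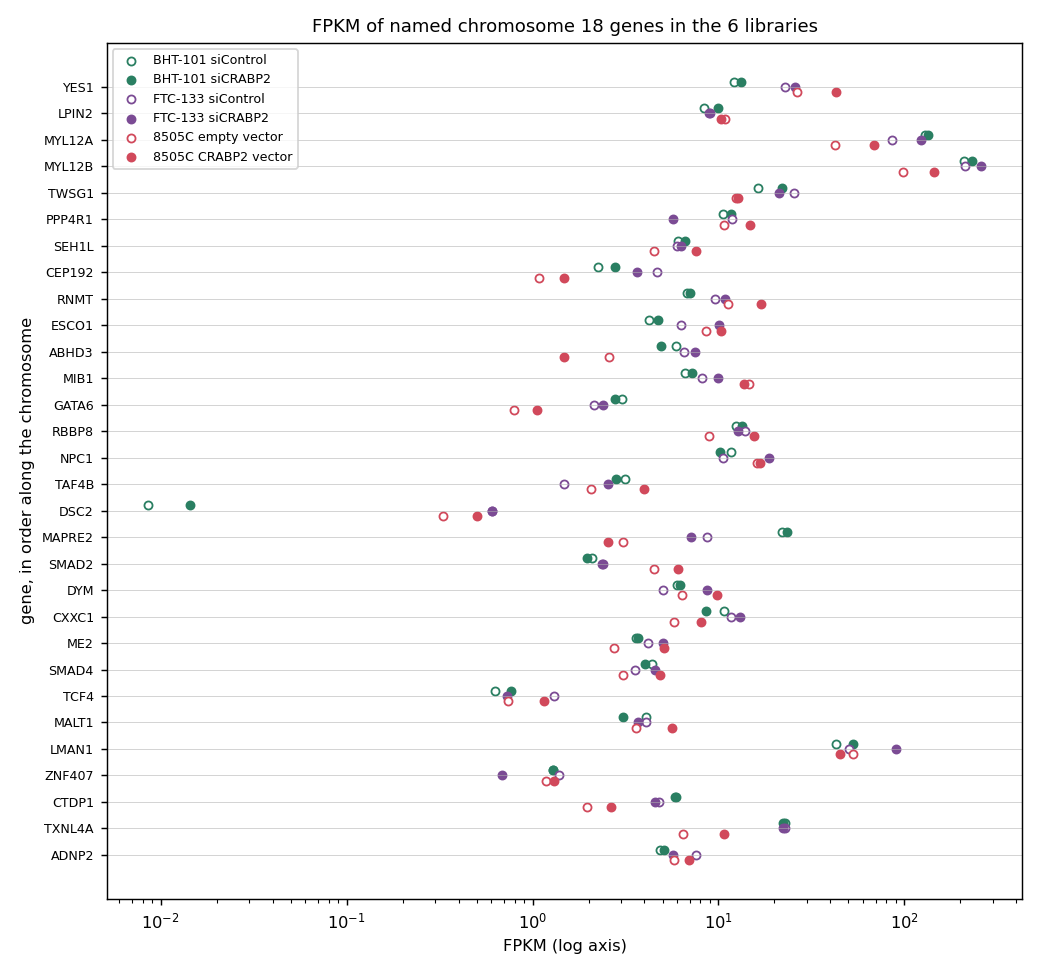
FPKM (horizontal log axis) of the 30 members named by rule (vertical axis, in order along the chromosome) in the 6 libraries, 1 point per library, with open circles for siControl or empty vector and filled circles for siCRABP2 or CRABP2 vector. MYL12B lies highest in each library and DSC2 has the lowest mean, and in 8505C the filled red circles lie to the right of the open ones except for ABHD3, LMAN1, MAPRE2, MIB1 and LPIN2.

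In the counts by role below, the share over the 164 measured chromosome 18 genes in 8505C, 92.7% above 0 and 68.9% at least 0.3 higher, is the level to read against. With 3 to 8 members a role, most of these counts lie near that share and are no result about a role. The members that carry TGF-beta and BMP signals were all above 0 in 8505C (5 of 5, median 0.35, 4 at least 0.3 higher). SMAD4 (ENSG00000141646, chr18:51028394-51085045), the partner that receptor-activated SMADs bind, was 3.06 and 4.83 FPKM with the empty and the CRABP2 vector, 4.39 and 4.03 with siControl and siCRABP2 in BHT-101, and 3.55 and 4.56 in FTC-133. Here and below the control library is given before the siCRABP2 or CRABP2 vector library. SMAD2 (ENSG00000175387, chr18:47808957-47931146), a receptor-activated SMAD of the TGF-beta branch, was 4.51 and 6.03 FPKM in 8505C, 2.08 and 1.96 in BHT-101 and 2.35 and 2.40 in FTC-133. Both SMAD genes were higher with the CRABP2 vector (0.52 and 0.35), and the FTC-133 libraries were nearly level for SMAD2 (0.02) while SMAD4 was 0.29 higher. SMAD3, the sister of SMAD2 on chromosome 15, was 47.6 and 34.9 FPKM in 8505C (-0.44), the opposite direction to SMAD2. SMAD1 and SMAD5, of the BMP branch, were 4.13 and 4.69 and 15.9 and 15.1 FPKM.

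Among regulators of the same pathway, NEDD4L, a ubiquitin ligase that targets SMADs, was 5.13 and 8.52 FPKM in 8505C (0.64) and 3.35 and 4.91 in FTC-133 (0.44), whereas its paralogue NEDD4 on chromosome 15 was 39.8 and 40.4 in 8505C. TWSG1 (chr18:9334767-9402420), a secreted protein that binds BMPs, was 12.4 and 12.7 FPKM in 8505C, 16.3 and 22 in BHT-101 and 25.5 and 21.1 in FTC-133. TWSG1 was near 0 in 8505C (0.04, interval -0.07 to 0.16), had the highest difference of the members in BHT-101 (0.41, interval 0.35 to 0.52) and was lower with siCRABP2 in FTC-133 (-0.26, interval -0.35 to -0.20). BMP1, a protease that cleaves the BMP antagonist chordin, was 21.7 and 13.4 FPKM in 8505C (-0.66), and CHRD, the chordin gene, was listed at 0 there. PIAS2, a SUMO ligase, was 0.31 higher in 8505C and -0.23 in FTC-133.

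All 5 kinases and other signalling proteins lay above 0 in 8505C (median 0.52, 4 at least 0.3 higher). YES1 was 12.0 and 13.2 FPKM in BHT-101 and 22.7 and 25.9 in FTC-133, so siCRABP2 libraries were slightly higher in both lines (0.12 and 0.18). Its relatives SRC and FYN were 9.34 and 10.1 and 15.2 and 17.4 FPKM in 8505C (0.10 and 0.18). PPP4R1 (chr18:9546791-9615240), a regulatory subunit of protein phosphatase 4, was 10.7 and 14.8 FPKM in 8505C (0.43), 10.5 and 11.6 in BHT-101 (0.13) and 11.8 and 5.66 in FTC-133 (-0.94, interval -1.16 to -0.96). The FTC-133 value was the lowest of any member in any of the 3 comparisons. The catalytic subunit PPP4C was 55.9 and 64.5 FPKM in FTC-133 and the subunit PPP4R2 was 15.3 and 14.4, so neither was lower by a like amount.

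MALT1 (chr18:58671386-58754477), a paracaspase of NF-kB signalling, was 3.6 and 5.60 FPKM in 8505C (0.52), 4.08 and 3.05 in BHT-101 (-0.33, interval -0.55 to -0.29) and 4.05 and 3.69 in FTC-133 (-0.11). It was the lowest member in BHT-101. Its partners BCL10 and CARD10 were 5.32 and 5.11 and 8.35 and 8.12 FPKM there. IMPACT, a regulator of the amino acid sensor kinase GCN2, was 0.52 higher in 8505C, while the atypical kinase RIOK3 was 0.07 higher.

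The 6 transcription factors had the second lowest role median in 8505C, 0.27, with 6 of 6 above 0 and 3 at least 0.3 higher. GATA6 (chr18:22169443-22202528), a zinc finger factor of endoderm, was 0.795 and 1.06 FPKM in 8505C on 69 and 89 reads, 3.01 and 2.77 in BHT-101 and 2.13 and 2.40 in FTC-133. TCF4 (chr18:55222331-55664787), a basic helix-loop-helix E protein, was 0.741 and 1.15 FPKM in 8505C (0.31), 0.627 and 0.770 in BHT-101 (0.12) and 1.31 and 0.726 in FTC-133 (-0.42, interval -1.0 to -0.69). GATA6 and TCF4 were low throughout. GATA2, of the same family as GATA6, was 4.50 and 4.22 FPKM in 8505C, and GATA4 was listed at 0 in both 8505C libraries. ZNF407 (chr18:74597870-75065671), a zinc finger protein, was 1.18 and 1.3 FPKM in 8505C, 1.29 and 1.29 in BHT-101 and 1.38 and 0.685 in FTC-133, where the siCRABP2 library was -0.50 from siControl (interval -1.25 to -0.78).

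TAF4B was 3.13 and 2.81 FPKM in BHT-101 (-0.12) and 1.47 and 2.54 in FTC-133 (0.52). Its paralogue TAF4 on chromosome 20 was 4.19 and 3.01 FPKM in 8505C (-0.37), so the 2 genes lay on opposite sides of 0 there. ADNP2 (chr18:80109031-80147523), a homeodomain protein and the member nearest the long arm telomere, was 5.73 and 6.93 FPKM in 8505C (0.24), 4.82 and 5.12 in BHT-101 and 7.53 and 5.67 in FTC-133 (-0.36). ADNP, its paralogue on chromosome 20, was 23.9 and 23 FPKM in 8505C. The E proteins TCF3 and TCF12, relatives of TCF4, were 0.48 and 0.11 in 8505C and 0.52 and -0.06 in FTC-133. ZNF24 was 0.39, 0.22 and 0.23 in 8505C, BHT-101 and FTC-133.

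Chromatin and RNA polymerase regulators kept within a narrow range in 8505C, from 0.22 for SS18 to 0.41 for CXXC1, with 8 of 8 above 0 and 7 at least 0.3 higher. CXXC1 (chr18:50282343-50288304), which binds unmethylated CpG and guides histone H3K4 methylation, was 5.79 and 8.02 FPKM in 8505C, 10.7 and 8.61 in BHT-101 (-0.28) and 11.7 and 13.0 in FTC-133 (0.14). The methyltransferases it serves, SETD1A and SETD1B on chromosomes 16 and 12, were -0.26 and -0.48 in 8505C. CTDP1 (chr18:79679801-79756623), a phosphatase of the RNA polymerase II tail, was 1.96 and 2.64 FPKM in 8505C (0.30), 5.89 and 5.87 in BHT-101 and 4.81 and 4.54 in FTC-133. The other members here were MBD1 (0.39), a methyl-CpG-binding protein, INO80C (0.39), a remodeller subunit, RPRD1A (0.34), which binds the polymerase tail, ANKRD12 (0.30) and ELP2 (0.30), an Elongator subunit. In FTC-133 ELP2 was 0.53 higher with siCRABP2 and SS18, a subunit of BAF remodelling complexes, was -0.34.

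All 3 members that act on RNA caps, splicing or translation were at least 0.3 higher in 8505C, with a median of 0.55. TXNL4A (chr18:79970811-80033949), a component of the U5 splicing particle, was 6.45 and 10.7 FPKM in 8505C (0.65, interval 0.60 to 0.87), 22.8 and 22.3 in BHT-101 and 22.7 and 22.3 in FTC-133. Its 4 siRNA libraries were level and all above both 8505C libraries. RNMT (chr18:13726660-13764558), which methylates the mRNA cap, was 11.3 and 17.0 FPKM in 8505C (0.55), 6.77 and 7.04 in BHT-101 and 9.58 and 10.9 in FTC-133. The activating subunit RAMAC on chromosome 15 was also higher in 8505C, 9.09 and 12.4 FPKM (0.41). CTIF, a translation factor, was 0.50 higher in 8505C. PRPF6 and PRPF8, partners of TXNL4A in the U5 particle, were -0.03 and -0.42 there.

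Among ubiquitin ligases and proteasome assembly factors 4 of 5 were at least 0.3 higher in 8505C, with MIB1 as the exception. MIB1 was 6.58 and 7.21 FPKM in BHT-101 and 8.15 and 9.91 in FTC-133, with the siCRABP2 library higher in both (0.11 and 0.25). Its paralogue MIB2 was 2.86 and 2.96 FPKM in 8505C. RNF138, a ligase of DNA repair, was 0.63 higher in 8505C, and TXNL1, a proteasome-associated thioredoxin, 0.53. RNF125, also a ubiquitin ligase, was 0.708 and 1.3 FPKM in 8505C and only 0.0133 and 0.0303 in FTC-133, on 2 and 5 reads. PSMG2, a chaperone of proteasome assembly, was 9.95 and 15.6 FPKM in 8505C (0.60). Its assembly partners on other chromosomes were higher too: PSMG1 0.55, PSMG3 0.54 and PSMG4 0.49.

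Members of membrane traffic were at least 0.3 higher in 7 of 8 cases in 8505C, and LMAN1 was the exception. LMAN1 was 42.9 and 52.7 FPKM in BHT-101 (0.29, interval 0.25 to 0.34) and 50.3 and 90.1 in FTC-133 (0.83, interval 0.80 to 0.88), the highest difference of any member in FTC-133. In 8505C its cargo receptor partner MCFD2 and its relative LMAN2 were lower as well, at 113 and 85.4 FPKM (-0.40) and 73.7 and 57.3 FPKM (-0.36). In FTC-133 they were nearly level (-0.06 and -0.01). DYM (chr18:49041474-49461347), a Golgi protein, was 6.35 and 9.87 FPKM in 8505C (0.56), 5.96 and 6.24 in BHT-101 and 5.02 and 8.72 in FTC-133 (0.69, interval 0.68 to 0.91). IER3IP1, of the endoplasmic reticulum, and RAB12, a small GTPase, were higher by 0.58 and 0.57 in 8505C and by 0.53 and 0.49 in FTC-133. VPS4B, an ATPase of the ESCRT machinery, was 0.55 in 8505C and -0.17 in FTC-133. The others were PIK3C3, the class III PI3-kinase (0.39), NAPG, a SNAP that takes part in vesicle fusion (0.39), and VAPA, a membrane tether of the endoplasmic reticulum (0.35).

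Lipid handling was the role with the lowest median in 8505C, 0.04, with 3 of 5 above 0 and 2 at least 0.3 higher. NPC1 (ENSG00000141458, chr18:23506184-23586898) was 16.2 and 16.6 FPKM in 8505C (0.04, interval -0.03 to 0.11), 11.6 and 10.1 in BHT-101 (-0.18) and 10.6 and 18.6 in FTC-133 (0.76, interval 0.74 to 0.88). Its lysosomal partner NPC2 on chromosome 14 was 76.8 and 70.2 FPKM in FTC-133. ABHD3 was 5.90 and 4.89 FPKM in BHT-101 (-0.23) and 6.50 and 7.48 in FTC-133 (0.18). LPIN2 (chr18:2916994-3013315) was 8.38 and 9.93 FPKM in BHT-101 (0.22) and 8.86 and 8.98 in FTC-133 (0.02), while its paralogues LPIN1 and LPIN3 were -0.20 and -0.36 in BHT-101. OSBPL1A, an oxysterol-binding protein, and KDSR, an enzyme of sphingolipid synthesis, were 0.59 and 0.43 higher in 8505C. In BHT-101 4 of these 5 were below 0, as were 5630 of all 12048 measured genes. In FTC-133 4 of the 5 were above 0 (46.1% of all measured genes). With 5 members neither count is a result about the role.

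The cytoskeleton and junction members had a median of 0.55 in 8505C, with 4 of 5 above 0 and 3 at least 0.3 higher. MYL12B (chr18:3261479-3278431), the regulatory light chain gene next to MYL12A (chr18:3247481-3256236), was 97.9 and 143 FPKM in 8505C (0.55), 209 and 230.0 in BHT-101 and 211 and 257 in FTC-133 (0.29). MYL12A was 128 and 134 FPKM in BHT-101 and 85.6 and 123 in FTC-133 (0.51). The coding sequences of the 2 genes are 95.2% identical, with 77 bases as the longest identical run. Only coding sequences were compared, and whether reads were misassigned between the 2 genes was not tested. The essential light chain MYL6 on chromosome 12 was 57.5 and 93.6 FPKM in 8505C (0.69), close to MYL12A, whereas the heavy chain MYH9 was 126 and 95.7 (-0.39) and the light chain MYL9 6.62 and 4.27 (-0.53). Without MYL12A and MYL12B the other members made up 0.355% (empty vector) and 0.459% (CRABP2 vector) of non-mitochondrial reads.

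MAPRE2 (chr18:34976928-35143470) was 21.9 and 23.3 FPKM in BHT-101 and 8.64 and 7.13 in FTC-133 (-0.25). Its 4 siRNA libraries all lay above both 8505C libraries. Its relatives MAPRE1 and MAPRE3 were 0.05 and -0.56 in 8505C. DSC2 (chr18:31058840-31102522), a desmosomal cadherin, had the lowest mean level of the members, at 0.329 and 0.503 FPKM in 8505C, 0.00858 and 0.0143 in BHT-101 and 0.606 and 0.606 in FTC-133, and did not reach 1 FPKM in any library. Its desmosomal partner DSP was 5.10 and 13.6 FPKM in 8505C (1.26) and JUP 49.4 and 35.6 (-0.46). TPGS2, of the tubulin polyglutamylase complex, was 0.66 higher in 8505C.

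The 5 members of cell division, the nuclear pore and DNA repair were all above 0 in 8505C, with a median of 0.47. SEH1L (chr18:12947133-12987536), a nuclear pore protein, was 4.52 and 7.58 FPKM in 8505C (0.64), 6.07 and 6.62 in BHT-101 and 5.98 and 6.26 in FTC-133. Of the pore partners it assembles with, NUP107, NUP85 and NUP160 were -0.38, -0.26 and -0.21 in 8505C and SEC13 was 0.29. RBBP8 was 12.5 and 13.4 FPKM in BHT-101 and 13.9 and 12.7 in FTC-133, and its partners in end resection, MRE11, RAD50 and NBN, were 0.27, 0.07 and -0.12 in 8505C. CEP192 (chr18:12991362-13125052), a centrosome scaffold, was 1.08 and 1.47 FPKM in 8505C (0.25), 2.26 and 2.77 in BHT-101 (0.21) and 4.65 and 3.66 in FTC-133 (-0.28). The centriole assembly genes PLK4 and CEP152 were 0.313 and 1.0 and 0.579 and 0.726 FPKM in 8505C (0.61 and 0.13). ESCO1, a cohesin acetyltransferase, was 8.60 and 10.4 FPKM in 8505C (0.24), 4.25 and 4.70 in BHT-101 and 6.27 and 10.1 in FTC-133 (0.61, interval 0.56 to 0.81). Its paralogue ESCO2 was 0.0165 and 0.312 FPKM in 8505C (0.37) and 4.6 and 2.36 in FTC-133 (-0.74), and the cohesin subunit SMC3 was 34.6 and 33.5 in 8505C (-0.04). POLI, a translesion DNA polymerase, was 0.47 higher in 8505C.

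The 4 mitochondrial and metabolic enzymes were all at least 0.3 higher in 8505C, with a median of 0.44. ME2 was 3.6 and 3.67 FPKM in BHT-101 and 4.17 and 5.05 in FTC-133 (0.23). Its cytosolic paralogue ME1 on chromosome 6 was 7.74 and 5.13 FPKM in 8505C (-0.51), on the other side of 0, and ME3 was 0.901 and 1.53 (0.41). AFG3L2, a protease of the inner mitochondrial membrane, and CNDP2, a cytosolic dipeptidase, were 0.40 and 0.48 higher. HDHD2 was 0.206 and 0.494 FPKM on 22 and 51 reads and did not reach the level of 1 FPKM. Both AFG3L2 and CNDP2 were below 0 in each siRNA line.

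**Figure D4:**
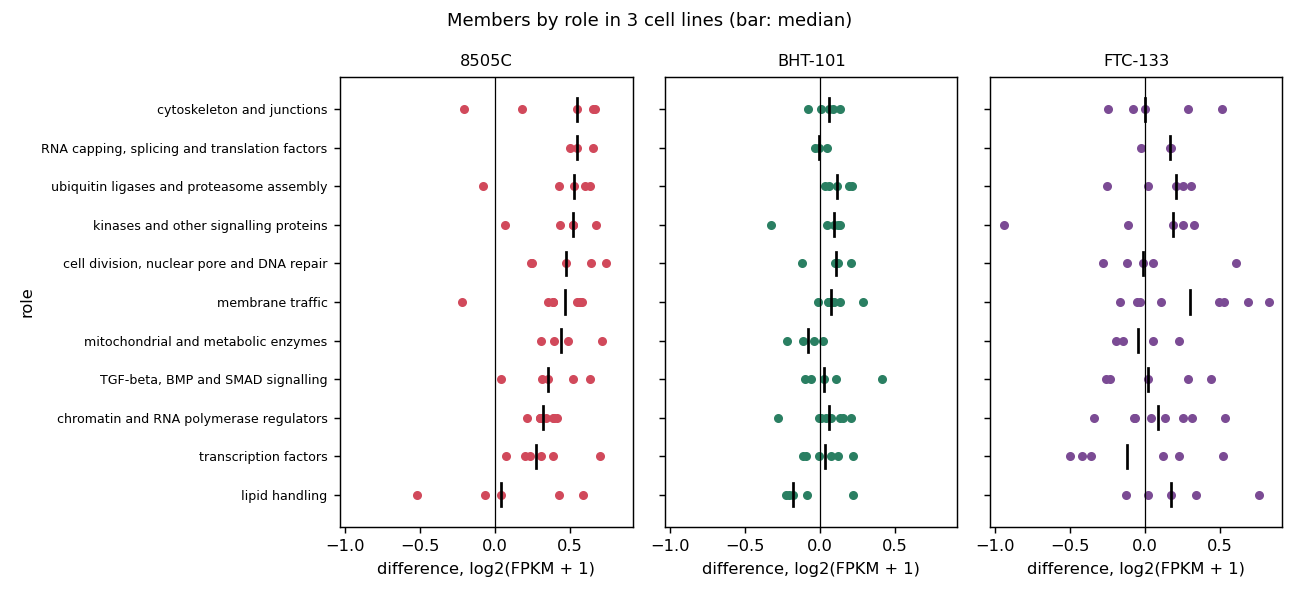
Difference in log2(FPKM + 1) (horizontal axis) of the 59 members in 11 roles (vertical axis), with 1 panel per line, 1 point per gene and a bar at the role median. In 8505C the medians of 10 roles lie between 0.27 and 0.55 and lipid handling lies at 0.04, while in both siRNA lines the role medians lie on both sides of 0.

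Partners or paralogues of the members on other chromosomes had a median near 0 in 8505C. Of 83 such genes 76 were measured in 8505C, with a median of -0.06. Above 0 were 32 of the 76 (42.1%, against 52.8% of all measured genes), at least 0.3 higher 12 (15.8%, against 21.2%) and at least 0.3 lower 17 (22.4%, against 17.6%). In 67 of the 76 pairs, which involve 43 members, the chromosome 18 member had the higher difference. Since the members were chosen on this contrast, the count is a description. In BHT-101 the member was higher in 48 of 76 pairs and in FTC-133 in 46 of 77. The partner was higher in 8505C for DSP and DSC2 (1.26 and 0.18), PLK4 and CEP192 (0.61 and 0.25), RIOK1 and RIOK2 with RIOK3 (0.32 and 0.33 against 0.07), MAPRE1 and MAPRE2 (0.05 and -0.21), TCF3 and TCF4 (0.48 and 0.31), and MIB2 and MIB1 (0.04 and -0.08). For MYL6 and MYL12A (0.69 and 0.67) and for SMARCA4 and SS18 (0.22 and 0.22) the values were almost equal.

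**Figure D5:**
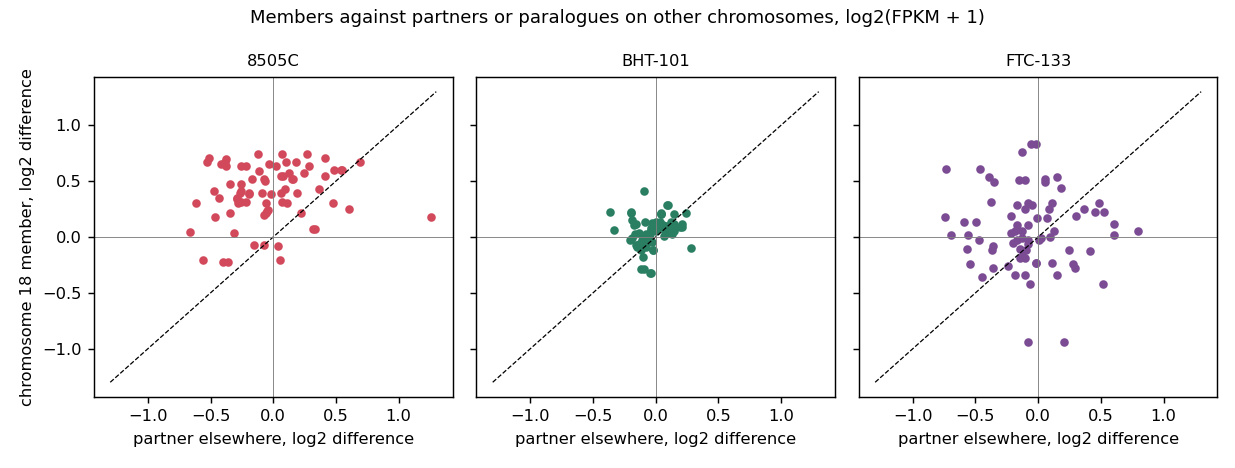
Difference of each member (vertical axis) against the difference of its partner or paralogue on another chromosome (horizontal axis), both in log2(FPKM + 1), with 1 panel per line and a dashed line where both are equal. In 8505C 67 of 76 points lie above the dashed line, against 48 of 76 in BHT-101 and 46 of 77 in FTC-133.

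In the empty vector library the members were not uniformly low in 8505C. The empty vector library minus the mean of the 2 siControl libraries had a member median of -0.14, against -0.18 over all 14403 genes measured and -0.53 over the rest of chromosome 18. The member median turned to 0.04 when values were centred on the median gene, so its direction depends on the scaling. Of the 59 members 17 were at least 0.3 higher in 8505C (33.3% of genes), 22 at least 0.3 lower (45.2%), 2 at least 1 higher (13.2%) and 10 at least 1 lower (19.9%). Short arm members had a median of -0.35 and long arm members of -0.12. The lowest members at baseline were MAPRE2 (-1.86), TXNL4A (-1.67) and TPGS2 (-1.36), and the highest were RIOK3 (1.07) and IMPACT (1.06). This baseline shares the empty vector library with the 8505C difference, so no relation between the 2 sets of values was computed.

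The place of each 8505C library among the 4 siRNA libraries moved between the vectors. With the empty vector 24 members were below all 4 siRNA libraries (34.8% of 15098 genes), 18 within their range (35.4%) and 17 above all 4 (29.8%). With the CRABP2 vector 17 were below (34.2%), 12 within (36%) and 30 above (29.8%). On the short arm those above went from 5 to 8 of 15 and on the long arm from 12 to 22 of 44. Lines differ in many ways besides the vector, so these places compare single libraries of different lines.

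Reads set only the counting error of each value. With 1 library per group, variation between cultures and libraries could not be estimated. The median member had 1029 reads in the shallower 8505C library, 1184 in BHT-101 and 1259 in FTC-133, and the fewest were 22 in 8505C (HDHD2), 3 in BHT-101 (DSC2) and 2 in FTC-133 (RNF125). For 25 members an exon overlaps, over a length not measured here, an exon of a gene on the opposite strand. No source used here states the strand setting, so it is unknown whether reads in these overlaps were kept apart. NPC1 and RMC1 overlap on opposite strands. Both were near 0 in 8505C, at -0.18 and -0.07 in BHT-101 and at 0.76 and 0.41 in FTC-133. The part of the overlap in these values was not tested. The members had a median GC content of 41.2% against 47.5% over the genes measured in 8505C, and without the trend on GC content and length their median in 8505C was 0.43.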

How the data were processed

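RNA sequencing of 6 libraries from 3 human thyroid cancer cell lines was analysed from a table of FPKM values deposited by the authors, with 58884 rows. FastQC, Trimmomatic 0.38 and featureCounts 2.0.0 were used with GRCh38, per the submitters' processing notes. Not given in the sources used here are the aligner, the strand setting and the annotation release. Groups came from the sample titles. The summed level of the thyroid marker list is not reported here.

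The members and all lists of roles, partners and markers were chosen with earlier results of these data known. Symbols and positions came from GENCODE release 29 on GRCh38, which may not be the release the authors used. FPKM multiplied by exon length fell on whole multiples of 1 read for 74.9% of genes above 0, and with another length allowed for 99.1%, at a tolerance of 0.001 reads, which gave depth and reads. All 59 members gave whole reads. Intervals are 95% exact (Clopper-Pearson) intervals of the read ratio of 2 libraries. They cover counting error alone and set library against library.

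Differences are of log2(FPKM + 1), with sizes of 0.3 and 1 counted. Genes with FPKM of at least 1 in 1 or both libraries of a line form the background of that line, and members were not filtered. With 1 library per group no test was made within a line. Over the 4 siRNA libraries limma 3.58.1 (R 4.3.3) was fitted with a variance trend and a block for cell line, with Benjamini-Hochberg adjustment over all genes tested at 0.05. The cell line named in the labels pairs these libraries. The fit was tested on simulated data.

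Members were named if they had 1 of the 5 largest or 5 smallest 8505C differences, 1 of the 3 largest or 3 smallest in a siRNA line, lay among the 3 nearest each telomere or each side of the arm boundary, or had the highest or lowest mean FPKM. SMAD2, SMAD4, GATA6, NPC1, TCF4, DSC2, MYL12A and MYL12B were added. The rule also names partners of named members and, of the other chromosome 18 genes with mean FPKM of at least 5, the 5 largest and 5 smallest. The remaining members and their partners are given by role. Alternatives were other pseudocounts, filters, centring, quantile normalization, removal of a GC content and length trend, TMM-scaled recovered reads and, for the fit, no block and no variance trend.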

Additional observations from a re-analysis of the deposited data

How the results depend on the processing

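The median difference of the members in 8505C stayed above 0 under every alternative run, from 0.26 with a pseudocount of 5 to 0.54 on recovered reads with TMM scaling. Members at least 0.3 higher in that line numbered 44, and 24 with a pseudocount of 5. In FTC-133 the median moved from 0.06 to 0.22 on recovered reads, and members at least 0.3 higher from 14 to 23, or to 8 with a pseudocount of 5. Over all measured genes the FTC-133 median moved from -0.04 to 0.03 on recovered reads. Under the alternatives the share of all genes at least 0.3 higher was not computed, so these counts have no background. The baseline median of -0.14 became -0.46 without the trend on GC content and length. It became 0.04 when centred on the median gene and 0.02 after quantile normalization, so its direction is not settled. With the CRABP2 vector library as the 8505C baseline it was 0.29. That move repeats the 8505C difference on which the members were chosen, so it says nothing about the direction of the baseline. The cause of the other moves was not tested. In the siRNA fit 0 genes passed with the cell line as a block, and 0 passed with no replicate block, where 11 were higher and 11 lower at an unadjusted p under 0.05 and 0 members were among them. It also gave 0 with no variance trend, a pseudocount of 0.1, no filter or quantile normalization. Leaving out a line leaves no residual degrees of freedom, and each group has 1 library, so no library could be left out within a line.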
